A study of Mus musculus with 6 samples.

Results

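The cytosolic ribosomal protein genes encode the protein part of the ribosome outside mitochondria. Members were taken by name and class: every protein-coding gene of the deposited count table named Rpl or Rps with a digit, plus Rplp0, Rplp1, Rplp2 and Rpsa. Ribosomal S6 kinases, a binding protein of Rps19 and pseudogene names were left out. This gave 85 genes of the 54532 in the table, 52 of the large and 33 of the small subunit. RNA sequencing profiled 2208L, a transplantable mammary tumour of mice carried in Balb/c animals, and neither group was treated. CTC consisted of 3 libraries made from circulating tumour cells that had been propagated after collection from mouse blood. PT consisted of 3 libraries made from the primary tumours of the matched mice, which had been dissociated and enriched for tumour cells. The labels state neither ages nor engineered alleles. CTC cells had been propagated and PT cells are not said to have been, so group and handling cannot be told apart.

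Each ribosome holds 1 copy of nearly every ribosomal protein, and the dimers of the P stalk, which recruit translation factors, are the known exception. Messenger RNAs of these genes are abundant and begin with a C followed by a run of pyrimidines, the terminal oligopyrimidine (TOP) tract. The kinase mTOR and the binding protein LARP1 control their translation through this tract, and MYC and other growth regulators are known to raise their transcription. Their genes are scattered over the chromosomes, and many have processed pseudogenes that are nearly identical in sequence.

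The start of transcription of a few members is shown for the TOP letters that some carry and to set the starts of copies side by side. Each run covers 10 bases before and 20 bases from a RefSeq start site (GRCm38.p6), 5′ to 3′, with CTTTTC or CTTTCC in capitals.
Rpl28, chr7:4792955-4792984, plus strand: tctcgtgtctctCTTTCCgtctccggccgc
Rpl18, chr7:45718061-45718090, plus strand: ctcgcaggccgctCTTTCCccgcccactcc
Rpl27a, chr7:109519185-109519214, plus strand: cgtgagctcctccCTTTTCcctttctgcca
Rps27, chr3:90213629-90213658, minus strand: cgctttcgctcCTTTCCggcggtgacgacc
Rps27rt, chr9:114982720-114982749, minus strand: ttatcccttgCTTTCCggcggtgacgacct
Rps27l, chr9:66946076-66946105, plus strand: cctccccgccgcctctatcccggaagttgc
Rpl22, chr4:152325716-152325745, plus strand: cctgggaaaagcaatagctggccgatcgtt
Rpl22l1, chr3:28805498-28805527, plus strand: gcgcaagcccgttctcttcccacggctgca
The Rpl18 start site lies 2614 bases inside the gene as the table gives it. Windows were compared at the ungapped shift that gave the most identical bases. Rps27rt, a retrotransposed copy, shared 22 of 29 aligned bases with Rps27, whereas Rps27l shared 13 of 26 with it and Rpl22l1 shared 11 of 27 with Rpl22. The best match of unrelated windows was not measured, so the lower values cannot be read as likeness.

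A RefSeq promoter was matched by symbol for 65 of the 85 members. CTTTTC or CTTTCC stood on the sense strand between 20 bases before and 30 bases after a start site in 17 of the 65 (26.2%), against 4.72% of all 27025 genes with a promoter. Over the whole 300 bases and both strands, CCGGAAG, the core bound by ETS factors such as GABP, stood in 26 members (40%, against 9.93% of genes). The YY1 letters AAGATGG stood in 10 (15.4%, against 7.28%), GGGCGG, an SP1 box, in 40 (61.5%, against 38.2%), and the E-box CACGTG, which MYC binds, in 6 (9.2%, against 8.09%). TATAAA stood in 7 members (10.8%, against 15.7%) and CCAAT in 20 (30.8%, against 41.1%). The searches were independent, so letters may overlap, and a match is no evidence of binding.

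Library totals were 23845953 to 27897320 counts. Epithelial marker genes summed to between 2269 and 5843 CPM (counts as a rate per library, scaled by TMM factors to the usual CPM unit) in every library. Leukocyte markers summed to at most 2.59 CPM, neutrophil markers to at most 25.8, macrophage markers to at most 23.5 and fibroblast markers to between 8.91 and 164.9. The defining markers Ly6g, Adgre1, C1qa and Tyrobp had 0 counts in all 6 libraries, for which 3 counts, at most 0.129 CPM, is the upper limit. Other markers on the same lists were detected, unevenly between libraries. The macrophage total was 10.1, 23.5 and 3.8 CPM for CTC replicates 1, 2 and 3. For PT replicates 1, 2 and 3 it was 2.95, 4.76 and 1.16, so the groups overlapped. The neutrophil total was highest in CTC replicate 3 (25.8), followed by PT replicate 2 (16.3). The part of these markers in the results was not tested. T and B cell, endothelial and erythroid markers summed to at most 1.88 CPM. The fibroblast sum was lowest in CTC replicate 1 and highest in CTC replicate 3, and its part in the results was not tested. Mitochondrially encoded genes took 1.13% to 2.52% of counts. In bulk samples, fewer cells of a type and less RNA per cell cannot be told apart.

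Ribosomal protein genes took 4.74%, 7.20% and 6.66% of all counts in CTC replicates 1, 2 and 3, and 6.76%, 8.74% and 6.40% in PT replicates 1, 2 and 3. The groups overlapped, with CTC replicate 1 lowest, PT replicate 2 highest and the other 4 libraries close together. The mean share was 6.20% ± 1.30 in CTC and 7.30% ± 1.26 in PT (SD, n = 3 each). Large subunit genes made up 3.74% and small subunit genes 2.46% of CTC counts, against 4.21% and 3.09% of PT counts. Rows of the 298 pseudogenes named after ribosomal protein genes added 0.440% to 0.758% per library, and pseudogenes under other names were not counted.

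Levels of single members were compared per length, as counts per kilobase of the deposited gene length scaled to the same sum in every library. Of the 85 members, 82 passed the filter on low counts. Rpl10l and Rpl39l, paralogues known from testis, had 0 counts in every library, and Rpl3l, a paralogue of striated muscle, had 4 counts or fewer. The mean level of the 82 had a median of 959, and Rplp1, a P stalk protein, was highest at 10760. Rpl41, the smallest member, and Rpl19 followed in the large subunit at 3869 and 3605. In the small subunit Rps6, the substrate of S6 kinase, led at 5067, followed by Rps15 at 4262 and Rps3a1 at 2946. The lowest library of Rplp1 (9394) lay above every library of every other member, the next being Rps6 in CTC replicate 3 at 7719. This lead depends on the deposited lengths, 499 bases for Rplp1 and 1586 for Rps6, and for some members that length is the whole gene span. In CPM, Rplp1 (means of 1966 in CTC and 2037 in PT) lay below Rps6 (2372 and 3622) and Rpsa (2540 and 3358). The libraries of the genes that followed overlapped, so their order was not distinct. The order over all 82 was alike between libraries: Spearman correlations between any 2 libraries were 0.893 to 0.982, across genes that share length and mapping and so with no p.

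**Figure D1:**
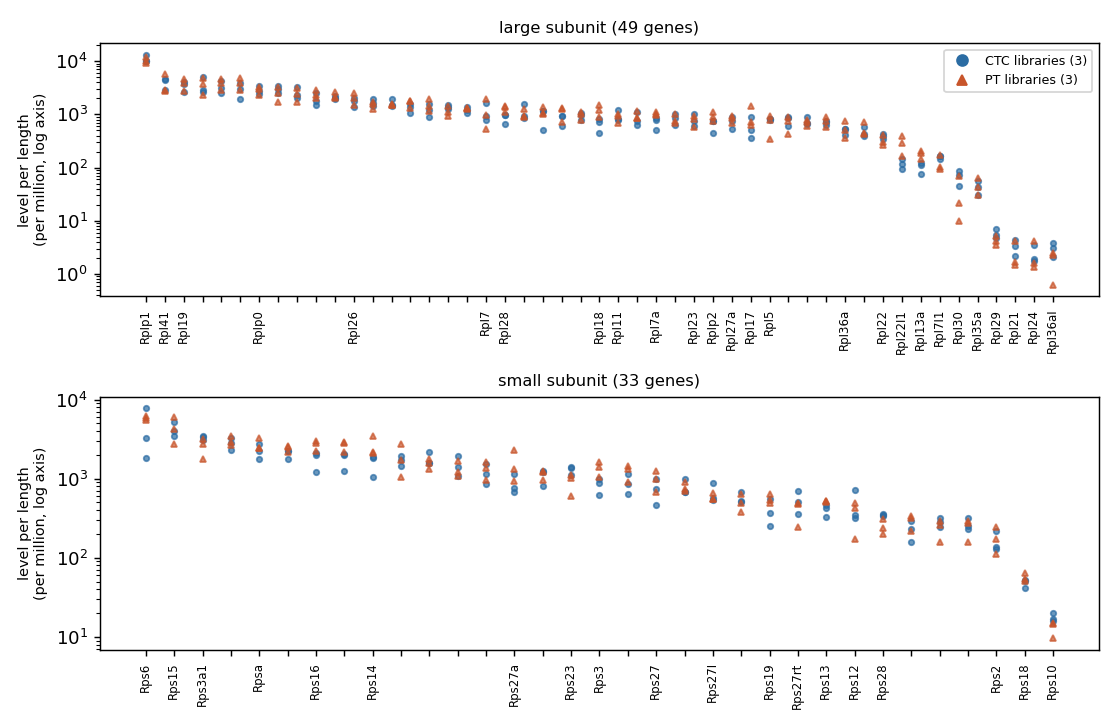
Level per length of each tested member (vertical axis, log scale, counts per kilobase scaled to one sum) in the 3 CTC libraries (circles) and 3 PT libraries (triangles), sorted by mean within each subunit, with names for members the text describes. Rplp1 leads at 10760, and 8 members lie below 100.

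The 8 tested members below 100 on this scale were Rpl21, Rpl24, Rpl29, Rpl30, Rpl35a, Rpl36al, Rps10 and Rps18. For Rpl21, Rps10 and Rps18 the rows of their pseudogenes held more counts than the gene itself. Rps10 had 1959 counts over the 6 libraries and its pseudogene rows 40455, of which Rps10-ps2 held 36766. Rps2, a protein near the messenger RNA entry site, had 17456 counts against 407303 in its pseudogene rows, led by Rps2-ps10 with 254167. Rpl21, Rpl17 and Rps18 were the other members with more counts in such rows than in their own, at 533 against 8801, 32933 against 66876 and 7323 against 10773. For 15 members, Rps16 (14.3%) and Rps12 (37.3%) among them, the pseudogene rows held over 10% of the summed reads. The levels and differences of these genes are therefore uncertain. Rpl24, with 134 counts over the 6 libraries, had no pseudogene row named after it, and Rpl29, with 312, had few reads in such rows, led by 7 in Rpl29-ps2. Summed over Rps2 and its pseudogene rows, the level was 2052, 3677 and 2057 CPM in CTC and 3866, 3209 and 2096 CPM in PT, which overlapped. The row of Rps10 alone was higher in CTC, with means of 14.33 CPM in CTC and 11.72 in PT. Summed with its pseudogene rows, Rps10 was mostly lower in CTC, at 162.8, 309 and 221.5 CPM against 393.4, 392.2 and 222.2 in PT, with overlap. The sums of Rpl21, Rpl17 and Rps18 overlapped as well.

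The comparison of CTC with PT sets tumour cells propagated from blood against those enriched from the primary tumour, so differences in handling are part of it. No difference of a ribosomal protein gene passed the test against the variation between libraries. Of the 82 tested members, edgeR's quasi-likelihood test called 0 at an adjusted p under 0.05, with a smallest adjusted p of 0.726, and percent called over all 13874 genes was 0. At an unadjusted p under 0.05 the test gave 6 members lower in CTC, where 3.31% of all genes were lower, and 0 higher, where 3.32% of all genes were higher. DESeq2 called 0 members (0.447% of all genes), limma-voom called 0, edgeR with a replicate block called 0 and edgeR without a filter on low counts called 0 (0.728% of all genes). DESeq2 with the block called 1 member, Rpl22l1, lower in CTC (1.79% of all genes). Of the 82, 60 had a negative (73.2%, against 45.9% of all genes) and 22 a positive log2 fold change (CTC minus PT). The median was -0.22, from -1.42 for Rpl22l1 to 0.92 for Rpl30, beside a median of 0.05 over all genes tested. Standard errors of single members ran from 0.24 to 0.65, with a median of 0.34.

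All CTC libraries lay below all PT libraries for 12 of the 82 tested members (14.6%), where this held for 6.16% of all genes. The reverse held for 2 members, Rps3a1 and Rps28 (2.44%, against 5.95% of all genes). In matched pairs, 32 of the 82 members were lower in CTC in all 3 pairs, where 15.3% of all genes were, and 7 were higher in all 3, where 15.6% of all genes were. The large subunit had a median log2 fold change of -0.17, with 39 of 49 negative, and the small subunit one of -0.26, with 21 of 33 negative.

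**Figure D2:**
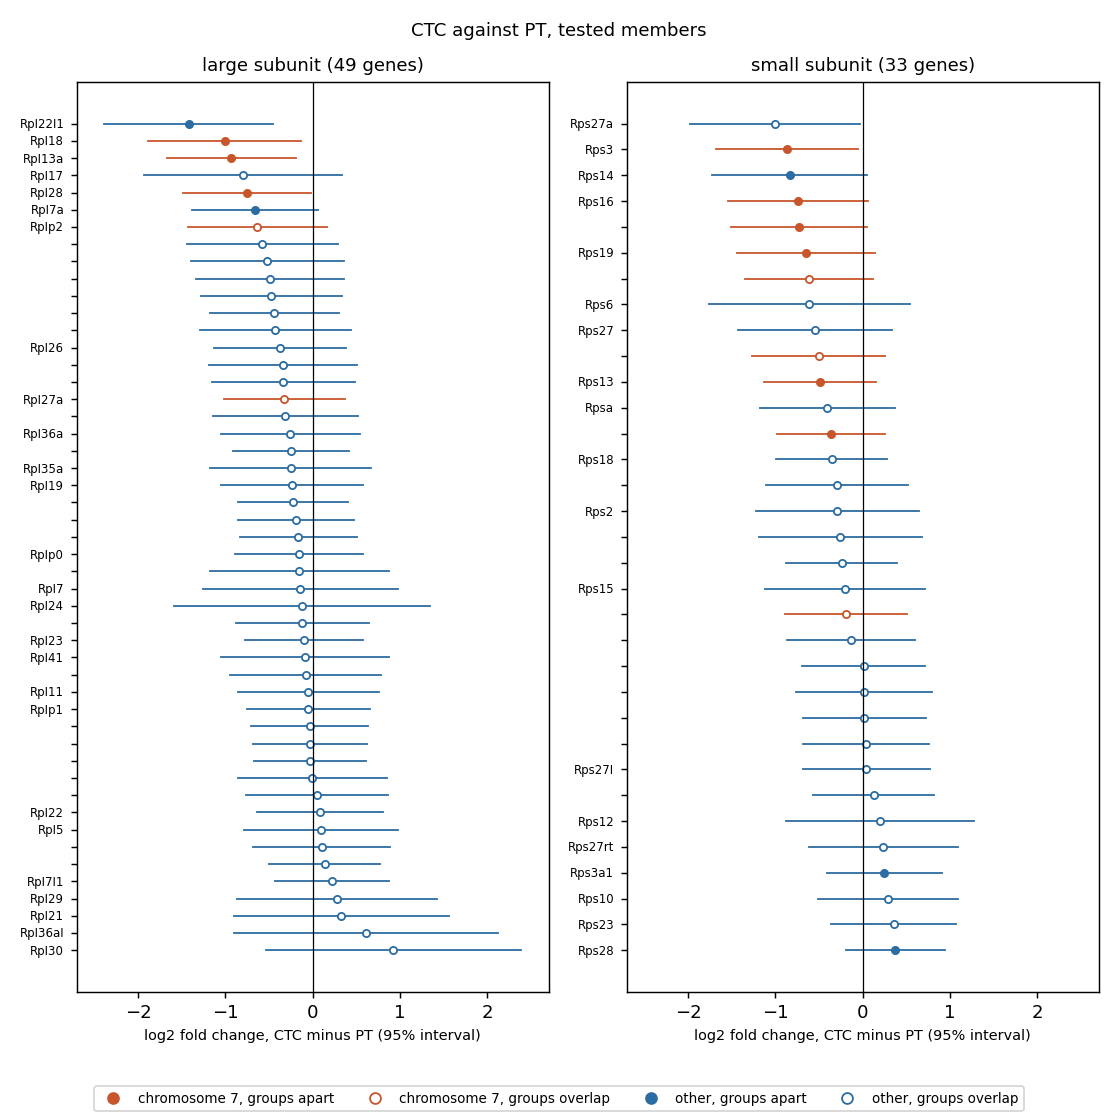
Log2 fold change of CTC minus PT (horizontal axis, edgeR) with its 95% interval for each tested member, by subunit, with names for members the text describes. Filled points mark members whose libraries do not overlap between groups (12 lower, 2 higher in CTC), and 9 of the 12 lower ones are on chromosome 7 (orange).

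The members moved together by library, and libraries of a group differed. After centring each gene on its mean log2 CPM, the median member stood at -0.45, 0.23 and -0.10 in CTC replicates 1, 2 and 3 and at -0.01, 0.43 and -0.01 in PT replicates 1, 2 and 3. CTC replicate 2 thus lay above PT replicates 1 and 3. Of the 82 members, 49 had their lowest value in CTC replicate 1 and 44 their highest in PT replicate 2. Such counts were not made over all genes. The median of other protein-coding genes under 1500 bases was also lowest and highest in these libraries, at -0.23 and 0.22. Taking the median profile of the members off each gene lowered the median SD over the 6 libraries from 0.435 to 0.307 on the log2 scale. Without CTC replicate 1 the median log2 fold change was -0.08, with 48 of 82 negative, and without PT replicate 2 it was -0.06, with 46 negative. Without CTC replicate 2 it was -0.42, with 67 negative, without PT replicate 3 it was -0.33, with 63 negative, and without replicate 1 of both groups it was -0.12.

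Gene length moved with the library profile. Tested members had a median length of 1754.5 bases, against 4433 for other tested protein-coding genes. Protein-coding genes under 1500 bases that are no members had median deviations of -0.23, 0.12 and -0.06 in CTC and 0.16, 0.22 and -0.12 in PT. Genes over 5000 bases stood at 0.19, -0.06 and 0.11 in CTC and at -0.14, -0.11 and 0.09 in PT, opposite in sign to the short genes in each library. With each library's trend on the deposited gene length removed, the members' median was -0.15 and 55 of 82 were negative. For some members, such as Rps13 (2691 bases) and Rpl9 (3081 bases), that length is the whole span of the gene and not that of the messenger RNA. An effect of messenger RNA length may therefore remain after this correction. The part of RNA length or integrity in the profile was not tested.

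**Figure D3:**
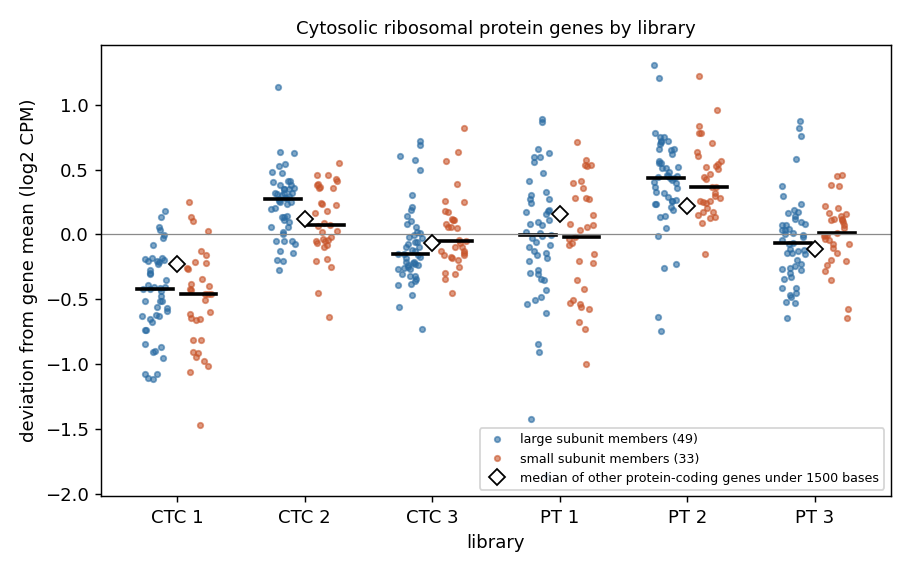
Deviation of each tested member from its own mean (vertical axis, log2 CPM) in the 6 libraries, for 49 large and 33 small subunit genes, with medians as black bars. Both subunits are lowest in CTC replicate 1 and highest in PT replicate 2, and short genes that are no members (diamonds) have the same sign in these 2 libraries.

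Chromosome 7 holds more of the tested ribosomal protein genes than any other chromosome, and these were low in CTC as a set. The only chromosome with a lower median was 18, with -0.82 over its 2 members, Rps14 and Rpl17. This split was chosen after the values were seen and carries no test. All 14 tested members there had a negative log2 fold change, with a median of -0.64, against -0.14 for the 68 on other chromosomes. Of the 14, 9 had all CTC libraries below all PT libraries (64.3%), against 3 of the 68 (4.41%). Other protein-coding genes of chromosome 7 were also low: 689 of 900 were negative with a median of -0.40, and 21.8% had the groups apart in this direction. On the remaining chromosomes such genes had a median of 0.09 and 4.88% lay apart. The members of chromosome 7 thus stood 0.50 below the members elsewhere, and its other genes 0.49 below other genes elsewhere. The pooled value covers chromosomes that differ. Among those with tested members, genes that are no members had medians from -0.25 on chromosome 6 to 0.39 on chromosome 10. In these, 12.8% and 1.38% lay apart below PT. Without the 14, the median of the members was -0.14, -0.15 in the large and -0.06 in the small subunit.

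The low values were unevenly spread along chromosome 7. Between 0 and 60 Mb, where 8 of the 14 members lie, the medians of other genes in 20 Mb bins were -0.54, -0.52 and -0.46. Between 140 and 160 Mb, where Rplp2 lies, the median was -0.51. Between 80 and 120 Mb they were -0.20 and -0.16, and the 5 members there had medians of -0.74 and -0.49 in these 2 bins. By library, other genes of the chromosome deviated by -0.39, -0.17 and -0.02 in CTC and by 0.41, 0.13 and 0.13 in PT. The ribosomal protein genes of the chromosome deviated by -0.87, -0.05 and -0.14 in CTC and by 0.44, 0.52 and 0.09 in PT. Replicate 1 of both groups was thus farthest apart for the neighbours, and the median of the 14 members was -0.42 without both of these libraries and -0.40 without CTC replicate 1 alone. DNA copy number was not measured.

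Rpl18 led these genes (ENSMUSG00000059070, chromosome 7, 45715457 to 45720836, GRCm38), a large subunit protein. It had 605.4, 1260 and 997.9 CPM in the CTC libraries against 2413, 2053 and 1298 in the PT libraries. All CTC libraries lay below all PT libraries, though CTC replicate 2 came close to PT replicate 3. The log2 fold change was -1.01 (SE 0.38, 95% interval -1.89 to -0.13, adjusted p = 0.726 in edgeR), and the 20 nearest tested genes had a median of -0.71. Without replicate 1 of both groups it was -0.55. Rpl13a (ENSMUSG00000074129, chromosome 7, 45125558 to 45128761), known also for silencing inflammatory messenger RNAs after release from the ribosome, lies in the same stretch. It had 54.0, 99.0 and 79.5 CPM in the CTC libraries against 157.6, 176.2 and 110 in the PT libraries, without overlap. Its log2 fold change was -0.93 (SE 0.32, adjusted p = 0.726 in edgeR), with neighbours at -0.68.

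Rps3, at the messenger RNA entry channel and known also for binding NF-kB, had 917.2, 1676 and 1362 CPM in the CTC libraries against 2568, 2973 and 1679 in the PT libraries. The groups lay apart by a narrow margin between CTC replicate 2 and PT replicate 3. Its log2 fold change was -0.87 (SE 0.35, adjusted p = 0.726 in edgeR), with neighbours at -0.36. Rps16, of the small subunit head, was at 507, 960.4 and 912.2 CPM against 1441, 1545 and 991.6 CPM, again without overlap, and its log2 fold change was -0.74, or -0.42 without replicate 1 of both groups. Rpl28, Rps19, the gene most often mutated in Diamond-Blackfan anaemia, and Rps13 also lay apart, with log2 fold changes of -0.76, -0.65 and -0.49. The neighbours of Rps13 had a positive median of 0.29, so its low value did not go with those 20 genes.

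Off chromosome 7, 3 members lay apart below PT. Rps14, a small subunit protein on chromosome 18, had 480.9, 973.6 and 900.2 CPM in the CTC libraries against 1213, 1953 and 1040 in the PT libraries, with neighbours at -0.11. Its log2 fold change was -0.84 (SE 0.39, adjusted p = 0.726 in edgeR), and -0.53 without PT replicate 2. Rpl7a, on chromosome 2, had a log2 fold change of -0.66 with neighbours at -0.29. The third was Rpl22l1, described with the paralogues.

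Over all 82 tested members, the log2 fold change of a gene and the median of its 20 nearest tested genes had a Pearson r of 0.46 and a Spearman rho of 0.46. Among the 68 off chromosome 7 the values were 0.27 and 0.32. These are descriptions across genes that share libraries, and neighbouring members share neighbours.

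**Figure D4:**
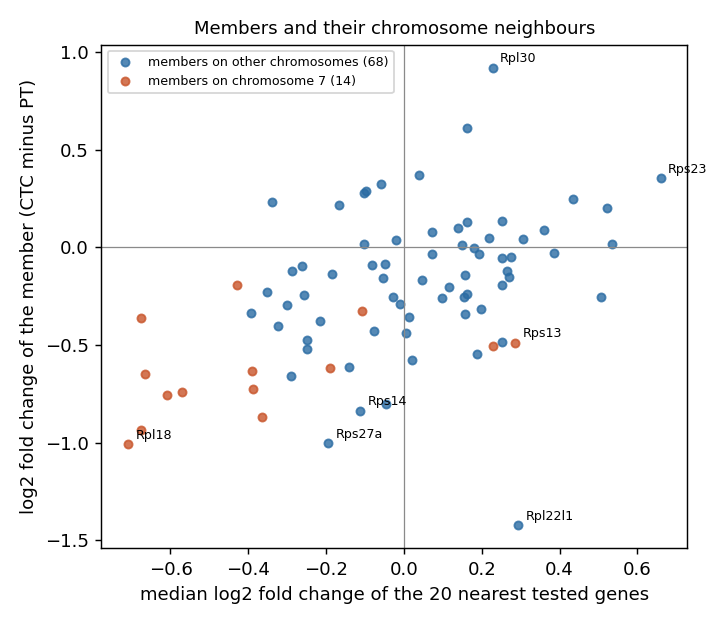
Log2 fold change of each tested member (vertical axis) against the median of its 20 nearest tested protein-coding genes that are no members (horizontal axis), with the 14 members of chromosome 7 in orange. Rpl18 and most genes of chromosome 7 lie low on both axes, while Rpl22l1 lies lowest among neighbours with a positive median of 0.29.

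Rpl22l1 had the lowest log2 fold change of all tested members. It encodes a paralogue of Rpl22, a protein at the outer face of the large subunit, and mammalian RPL22 is known to repress it (ENSMUSG00000039221, chromosome 3, 28805436 to 28807424, GRCm38). It had 61.1, 112 and 77.7 CPM in the CTC libraries against 236, 319.8 and 116.6 in the PT libraries. The groups did not overlap, but CTC replicate 2 and PT replicate 3 nearly met. The log2 fold change was -1.42 (SE 0.42, 95% interval -2.39 to -0.46). Its adjusted p was 0.726 in edgeR. In DESeq2 it was 0.135, or 0.0257 with the replicate block. Without PT replicate 2 it was -1.09, and without PT replicate 3 it was -1.73. Its parent Rpl22 had 330.4, 483.8 and 382.5 CPM in the CTC libraries against 358.9, 498.9 and 274.1 in the PT libraries, which overlapped.

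Relative to Rpl22, Rpl22l1 counts were 18.5%, 23.1% and 20.3% in CTC replicates 1, 2 and 3 and 65.8%, 64.1% and 42.6% in PT. The ratio does not depend on library scaling, and the groups lay further apart in it than in the level of Rpl22l1 itself. The log2 ratio differed by -1.46 (exact permutation test, two-sided, p = 0.1, the smallest that 3 against 3 libraries allow; 0.25 adjusted over 5 ratios). Rps27rt, whose start is nearly that of Rps27, was at 27.8%, 24.2% and 25.4% of Rps27 counts in CTC and at 13%, 13.5% and 18.1% in PT. These groups did not overlap either (log2 ratio 0.81 higher in CTC, exact permutation p = 0.1, 0.25 adjusted), and reads of the 2 genes could have been placed in either. Rps27l, a p53-induced paralogue of Rps27, was at 95.2%, 92% and 42.6% in CTC and at 64.2%, 40.8% and 44% in PT, with overlap. Rpl7l1, a nucleolar assembly factor related to Rpl7, and Rpl36al, with 176 counts in all, overlapped as well relative to Rpl7 and Rpl36a, and the adjusted exact permutation p of these 3 ratios was 0.333 to 0.5.

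**Figure D5:**
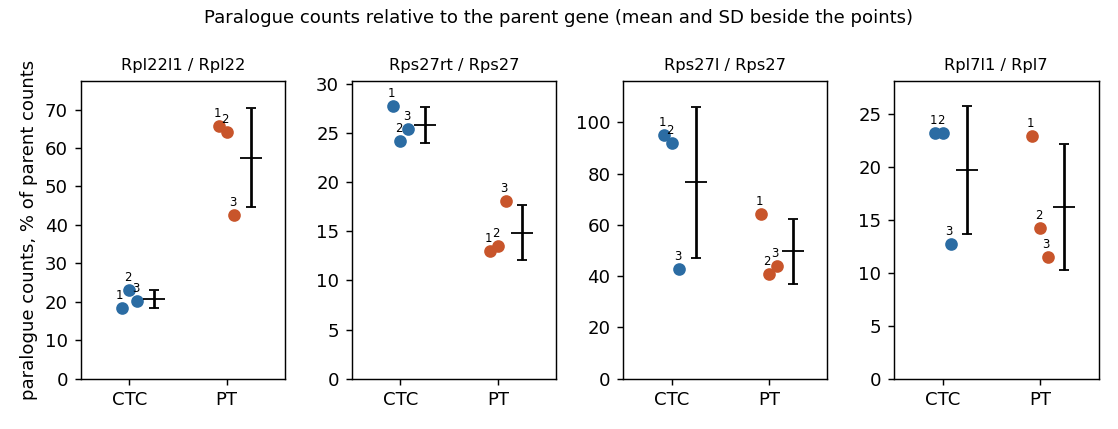
Counts of 4 paralogues as a percentage of the counts of the parent gene (vertical axes from 0), with replicate numbers beside the points and mean and SD to their right (n = 3 per group). Rpl22l1 lies at 18.5% to 23.1% of Rpl22 in CTC and at 42.6% to 65.8% in PT, and Rps27rt is the other paralogue without overlap.

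Rps6, Rps27a, Rpl5, Rpl11, Rpl23 and Rpl26 overlapped between groups. Rps6 had 972.8, 1961 and 4180 CPM in the CTC libraries against 3542, 3850 and 3474 in the PT libraries, so that CTC replicate 3 was highest of all and the CTC libraries spread over more than the whole PT range. The fold change (log2 -0.61) came to -0.24 when CTC replicate 1 was left out and to -1.31 when CTC replicate 3 was. Rps27a, which is made as a fusion with ubiquitin, had 505.1, 513.8 and 773.1 CPM in the CTC libraries against 1065, 1867 and 655.8 in the PT libraries. CTC replicate 3 lay above PT replicate 3, and the log2 fold change was -1.001 (SE 0.42, adjusted p = 0.726 in edgeR), and -0.54 without PT replicate 2. Rpl5 and Rpl11, which with 5S ribosomal RNA bind and block Mdm2, had log2 fold changes of 0.09 and -0.05. Rpl23 and Rpl26, known for binding Mdm2 and the Trp53 messenger RNA, had -0.10 and -0.38, the latter -0.12 without PT replicate 2. Mdm2 itself had 108.7, 50.8 and 48.8 CPM in the CTC libraries against 20.6, 30.9 and 39.4 in the PT libraries, without overlap (log2 fold change 1.20, or 0.72 without CTC replicate 1, adjusted p = 0.726 in edgeR).

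The P stalk genes overlapped between groups. Rplp0, its base, was at 1675 ± 402 CPM in CTC and 1866 ± 424.6 in PT, and Rplp1 at 1966 ± 469.4 and 2037 ± 397 (SD, n = 3 each). Rplp2, on chromosome 7, was at 479.2 ± 151.3 against 743.5 ± 182.6 CPM, with a log2 fold change of -0.63 beside -0.16 and -0.05 for the others. Its libraries overlapped, as CTC replicate 2 at 603.8 CPM lay above PT replicate 3 at 551.2, and the log2 fold change was -0.40 without CTC replicate 1. Rpsa, a small subunit protein once described as a laminin receptor, was at 2540 ± 752.9 and 3358 ± 726 CPM, also with overlap. Its log2 fold change of -0.40 was -0.03 without replicate 1 of both groups.

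Few members had a positive log2 fold change of any size. Rps28 had 169.1, 201.9 and 170.8 CPM in the CTC libraries against 117.6, 142.4 and 158.9 in the PT libraries, and Rps3a1 at 1140, 1162 and 1132 against 697.4, 1104 and 1094 CPM. Both lay above PT in every library, with log2 fold changes of 0.37 and 0.25 (adjusted p = 0.745 and 0.833 in edgeR). For Rps3a1 the margin to PT replicates 2 and 3 was small, and the log2 fold change was 0.06 without PT replicate 1. Rpl30 had the highest log2 fold change, 0.92 (SE 0.63), but ranged from 12.3 to 75.7 CPM within PT and had a profile farthest from that of the other members. Without PT replicate 1 it was 0.50, and without PT replicate 3 it was 1.89. Rps23, at 0.35 (0.15 without PT replicate 1), lies among genes of chromosome 13 with a median of 0.66, and Rps12, at 0.20, among genes of chromosome 10 with one of 0.52. The sign of Rps12 depended on single libraries, with -0.24 without CTC replicate 3 and -0.12 without PT replicate 1.

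Members holding CTTTTC or CTTTCC between 20 bases before and 30 bases after a start site had a median log2 fold change of -0.28 (16 tested). It was -0.22 for the 46 tested members with a promoter but without these letters. The letters are only some forms of a TOP tract, so this split cannot separate members with a tract from members without one. Members with and without CCGGAAG had medians of -0.24 and -0.23. Neither feature set members apart by more than 0.1.

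Some ribosomal proteins, such as Rack1 and Fau, carry other names. Rack1, a signalling scaffold on the small subunit, had 1583, 2756 and 1744 CPM in the CTC libraries against 4535, 4534 and 2024 in the PT libraries, with a log2 fold change of -0.87 and overlap between CTC replicate 2 and PT replicate 3. Fau, which encodes a fusion of a ribosomal protein with a ubiquitin-like protein, had -0.10. In lists of related genes edgeR called 0 genes, with 0% called over all genes. Over all 13874 genes tested, 7504 were positive, which is the background for the counts by sign in these lists. Of 39 ribosome assembly genes, 28 were on the positive side (median 0.33), opposite in sign to the ribosomal protein genes. Their library medians were 0.33, 0.37 and -0.12 in CTC and -0.53, -0.21 and 0.19 in PT, which overlapped. Utp4, of the small subunit processome, had 246.3, 250.3 and 121.4 CPM in the CTC libraries against 103.3, 94.4 and 138.7 in the PT libraries, with a log2 fold change of 0.88. The assembly median was 0.15 without PT replicate 1, 0.14 without PT replicate 2, 0.55 without PT replicate 3 and 0.70 without replicate 3 of both groups.

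All 6 translation elongation factor genes were negative by small amounts, with a median of -0.10, from -0.36 for Eef1b2 to -0.01 for Eef1a1. Of 29 initiation factor genes 16 were positive (median 0.17), and Eif3f, on chromosome 7, was lowest at -0.98 with the groups apart, and at -0.45 without replicate 1 of both groups. Of 12 other genes listed for TOP messenger RNAs 9 were positive (median 0.46), led by Nap1l1 at 1.05 (0.52 without replicate 1 of both groups). Of 14 genes of mTOR and TOP control 10 were positive (median 0.04). In that list Eif4ebp1, the translation repressor that mTOR inactivates, had 184.5, 290.1 and 188.6 CPM in the CTC libraries against 594.4, 509.2 and 235.4 in the PT libraries. Larp1 was at 333.3 ± 40.6 and 323.7 ± 126 CPM and Myc at 123.6 ± 54.6 and 138.2 ± 13.5 CPM (SD, n = 3 each). Of 15 proliferation genes 8 were negative (median -0.23). Medians were 0.03 for 12 genes of RNA polymerase I transcription, 0.09 for 13 of chaperones and import, 0.19 for 10 of ribosome quality control, -0.03 for 9 of the MYC network and 0.15 for 10 of ribosomal stress and p53.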

How the data were processed

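RNA was measured in 3 CTC and 3 PT libraries. The authors deposited raw read counts per Ensembl gene with gene lengths; HISAT2 and the builds GRCm38 and mm10 are named per the submitters' processing notes. For the read counter, its handling of strand and of multiply mapped reads, and the annotation release: not given in the sources used here. Start and end of 83 of 85 members were the same in GENCODE M21, and coordinates are those of the table.

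The fit used edgeR 4.0.16 (R 4.3.3): filterByExpr by group, TMM scaling, glmQLFit and glmQLFTest over 13874 genes, Benjamini-Hochberg adjustment, threshold 0.05. Fold changes are CTC minus PT, and each SE was derived from the fold change and its F. A prior count of 2 entered log2 CPM. DESeq2 1.42.0 and limma 3.58.1 were alternatives. Neighbours were the 10 nearest tested protein-coding genes on each side. The edgeR fit was tested on simulated counts with changes of known size and no shifts shared by genes within a library. DESeq2 and limma-voom were not tested in this way.

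Members, lists and tests were chosen with earlier results of these data known. Named genes followed a rule on subunit, size and sign of change, level, overlap, profile and role; other members of chromosome 7 and those apart were added after their values were seen. Some genes are not reported here by name.

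Libraries with the same number come from matched mice per the labels, which pairs them; across genes, the deviations of paired libraries correlated at -0.02, 0.16 and 0.30. P-values measure the spread between these libraries.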

Additional observations from a re-analysis of the deposited data

How the results depend on the processing

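The members were refitted under 20 planned and 4 later alternatives. The count of members called stayed at 0, including with the replicate block, except in DESeq2 with the replicate block, added after seeing the data, which called 1 (Rpl22l1). Over all genes, DESeq2 called 62 (248 with the block), edgeR without a filter called 199, and all other fits called 0. The median log2 fold change of the members stayed negative in every fit and moved by less than the SD of library medians (0.299). That SD is larger than the size of the main median (-0.22), so even a change of sign could have passed this limit. The median ranged from -0.42 to -0.06 without single libraries or matched pairs. It was -0.19 with the replicate block, -0.15 with the gene length correction and -0.13 with both. With the GC correction it was -0.19, with and without the block. RLE scaling gave 63 negative members of 82 and a median of -0.24. Adding pseudogene rows gave shares of 6.77% in CTC and 7.97% in PT, and leaving out single libraries gave 5.70% to 6.93% and 6.58% to 7.75%. Of 41 named members, 24 kept their sign in all fits. Of their 942 refitted values, 940 moved by less than the SD of the gene between libraries, a limit that changes of sign also passed. The replicate block in edgeR changed no call. The depth of 3 libraries per group, with standard errors near 0.34, limits what could be called.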
